A study of Homo sapiens with 12 samples.

Results

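MHC class I molecules carry peptides of intracellular proteins to the cell surface, where CD8+ T cells read them. In this pathway the proteasome cuts proteins into peptides, the TAP transporter moves the peptides into the endoplasmic reticulum, and loading factors place them on a heavy chain paired with beta-2-microglobulin. Interferon induces most of these genes, and lowered class I expression is a known route by which squamous carcinomas escape T cells. The 9 genes examined here were the heavy chains HLA-B, HLA-C, HLA-E and HLA-F, the light chain B2M, the transporter subunits TAP1 and TAP2, and the immunoproteasome subunits PSMB8 and PSMB9. They were chosen by name, and 8 of the 9 had at least 1 probe set listed under their symbol. HLA-E had none listed and is not described further. B2M, TAP1, TAP2, PSMB8 and PSMB9 had probe sets of their own, 7 in all, whereas HLA-B, HLA-C and HLA-F were listed only on 4 probe sets that carry several gene symbols. The 11 probe sets stood among 32321 on the array, and the 5 genes with a probe set of their own among 18404 genes tested.

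The arrays came from FaDU and JHU-029, established lines of human head and neck squamous cell carcinoma. Each line had received, by lentivirus, either an shRNA against TP63 (shTP63), the gene of the basal keratinocyte factor p63, or a control vector (shControl). RNA was taken 72 hours later, and each of the 4 groups (FaDU shTP63, FaDU shControl, JHU-029 shTP63 and JHU-029 shControl) held 3 Affymetrix arrays. All groups therefore carried a lentiviral vector, and no untransduced cells are among them. The labels name neither the shRNA sequence nor the number of shRNAs used, give no interferon treatment, and leave unstated whether replicates came from independent cultures. The p-values therefore cover the spread of these arrays, which may be technical. The level of TP63 is not analysed here, so the knockdown was not checked on these arrays. In bulk RNA, fewer cells that express a gene and less of its RNA per cell cannot be told apart.

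Log2 intensities correlated at 0.993 to 0.997 between arrays of a group, at 0.989 to 0.996 between the arms of a line and at 0.940 to 0.951 between lines. The titles of FaDU shControl replicates 1 and 2 carry an extra word, "new", that no other title carries, and calls of named genes that were lost without these arrays are stated. Of 11 squamous epithelial markers, 9 were measured, and all 9 lay above the array median in both control groups. Their summed intensity was 16161 to 16446 in FaDU shTP63, against 22579 to 22889 in FaDU shControl, and 34095 to 36369 in JHU-029 shTP63, against 36084 to 38390 in JHU-029 shControl. Of 14 immune cell markers, 13 were measured, and 3 of them lay above the array median in each group. Their summed intensity was 813 to 866 in FaDU shTP63, against 753 to 837 in FaDU shControl, and 681 to 705 in JHU-029 shTP63, against 671 to 712 in JHU-029 shControl. The part of either marker list in the results below was not tested.

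TAP2, PSMB8, TAP1 and PSMB9 are 4 consecutive protein-coding genes of chromosome 6 in the RefSeq annotation, inside the MHC, while B2M lies on chromosome 15. TAP1 and PSMB9 are transcribed away from each other from starts 487 bases apart, and their promoter windows overlap by 13 bases. RefSeq promoter windows (GRCh38.p14, 250 bases before to 50 after the annotated start, each on the strand of its gene) were found for 8 of the 9 genes. 7 are shown, those of B2M, the 4 neighbouring genes of chromosome 6 and the HLA-B and HLA-C pair, because the called knockdown differences were at these genes or, for TAP1, next to one of them. Capitals mark matches, on either strand, to the core of the interferon-stimulated response element (GAAA, any 2 bases, GAAA) or to the NF-kB consensus, with positions counted from 0 at the annotated start.
B2M (chr15:44711267-44711566, plus strand): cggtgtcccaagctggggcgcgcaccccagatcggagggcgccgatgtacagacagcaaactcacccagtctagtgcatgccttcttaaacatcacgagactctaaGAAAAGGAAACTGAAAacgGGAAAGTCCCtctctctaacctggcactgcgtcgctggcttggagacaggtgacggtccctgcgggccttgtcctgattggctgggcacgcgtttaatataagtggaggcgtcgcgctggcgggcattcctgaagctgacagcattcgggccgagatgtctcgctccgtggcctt
HLA-B (chr6:31357130-31357429, minus strand): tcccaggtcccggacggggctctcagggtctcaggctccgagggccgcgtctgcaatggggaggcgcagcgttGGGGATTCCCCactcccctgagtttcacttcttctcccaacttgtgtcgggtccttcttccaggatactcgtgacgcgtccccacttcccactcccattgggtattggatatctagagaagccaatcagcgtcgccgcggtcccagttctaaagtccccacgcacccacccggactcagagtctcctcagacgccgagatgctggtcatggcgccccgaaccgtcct
HLA-C (chr6:31272043-31272342, minus strand): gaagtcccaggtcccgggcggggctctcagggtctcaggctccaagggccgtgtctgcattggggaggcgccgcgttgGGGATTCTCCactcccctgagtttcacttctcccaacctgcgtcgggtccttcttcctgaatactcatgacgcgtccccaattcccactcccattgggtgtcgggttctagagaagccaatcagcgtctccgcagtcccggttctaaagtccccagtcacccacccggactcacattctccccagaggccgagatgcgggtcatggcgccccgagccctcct
TAP1 (chr6:32853655-32853954, minus strand): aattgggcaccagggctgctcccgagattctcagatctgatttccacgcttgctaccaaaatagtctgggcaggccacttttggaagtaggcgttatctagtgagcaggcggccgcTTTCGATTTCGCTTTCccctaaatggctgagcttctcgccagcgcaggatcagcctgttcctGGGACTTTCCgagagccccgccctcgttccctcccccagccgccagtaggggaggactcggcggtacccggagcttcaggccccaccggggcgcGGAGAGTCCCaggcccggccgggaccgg
TAP2 (chr6:32838690-32838989, minus strand): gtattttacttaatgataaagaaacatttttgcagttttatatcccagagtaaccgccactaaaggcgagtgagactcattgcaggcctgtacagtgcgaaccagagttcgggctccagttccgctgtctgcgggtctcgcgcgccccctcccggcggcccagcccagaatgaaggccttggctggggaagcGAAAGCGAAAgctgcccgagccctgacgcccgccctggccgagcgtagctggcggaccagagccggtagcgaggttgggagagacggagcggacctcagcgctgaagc
PSMB8, second annotated start (chr6:32843998-32844297, minus strand): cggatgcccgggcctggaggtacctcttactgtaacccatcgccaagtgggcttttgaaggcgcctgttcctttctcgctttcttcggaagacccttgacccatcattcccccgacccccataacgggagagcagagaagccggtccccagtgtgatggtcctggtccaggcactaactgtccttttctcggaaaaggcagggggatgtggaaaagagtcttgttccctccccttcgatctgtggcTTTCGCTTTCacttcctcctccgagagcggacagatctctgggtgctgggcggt
PSMB9 (chr6:32853942-32854241, plus strand): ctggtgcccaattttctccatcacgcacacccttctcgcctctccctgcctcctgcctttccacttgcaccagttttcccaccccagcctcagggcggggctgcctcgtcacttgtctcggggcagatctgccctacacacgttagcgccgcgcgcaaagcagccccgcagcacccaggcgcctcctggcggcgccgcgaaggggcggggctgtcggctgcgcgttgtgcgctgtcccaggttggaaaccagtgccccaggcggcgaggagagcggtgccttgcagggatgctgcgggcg

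B2M held 2 overlapping response element matches, from -144 to -135 and from -138 to -129, followed by an NF-kB match from -125 to -116. TAP1 likewise held 2 overlapping response element matches, from -134 to -125 and from -128 to -119, and NF-kB matches from -72 to -63 and from 22 to 31. TAP2 had 1 response element match from -58 to -49, PSMB8 had 1 from -4 to 5 at its second start, and HLA-F, not printed, had 1 from -156 to -147. The windows at the first start of PSMB8 and the second of TAP1, also not printed, held 0 matches. HLA-C had 1 NF-kB match, from -172 to -163, and HLA-B had 2 that overlap, between -177 and -167. These letters were absent from the PSMB9 window. Among all 35116 promoter windows of the same length, 3.57% held a response element match, 5.91% an NF-kB match and 6.63% a match to a p53-family half-site, which none of the members' windows held. The windows of HLA-B and HLA-C were 88.5% identical, those of HLA-B and HLA-F 79.2%, and those of HLA-C and HLA-F 78.5%. Only exact matches to these letters were searched, so a window without a match may still hold an element with other letters. A match describes the sequence and no binding was measured.

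In FaDU, PSMB9, PSMB8 and B2M rose after TP63 knockdown, as did both probe sets shared by HLA-C and HLA-B. These rises were small, 1.60-fold for PSMB9 and at most 1.20-fold for the others. In JHU-029 none of the 11 probe sets passed the test. A change was called where limma's p-value, adjusted by Benjamini and Hochberg over all items of the fit, was under 0.05. In FaDU 3 of the 5 genes with a probe set of their own rose and none fell, where 12.4% of all genes rose and 14.2% fell. The median log2 change of the 5 was 0.22, against 0.02 over all genes. Among the 4 shared HLA probe sets 2 rose, where 7.16% of all probe sets rose and 9.39% fell. Of the 2 further TAP2 probe sets 1 fell, 8125483, by 0.54 on the log2 scale (adjusted p = 0.00096) or 1.45-fold. In JHU-029 0 of 5 genes and 0 of 4 shared probe sets were called, where 3.15% of genes and 1.24% of probe sets were called in either direction. At an unadjusted p under 0.05, 3 of the 11 probe sets would have passed in JHU-029.

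**Figure D1:**
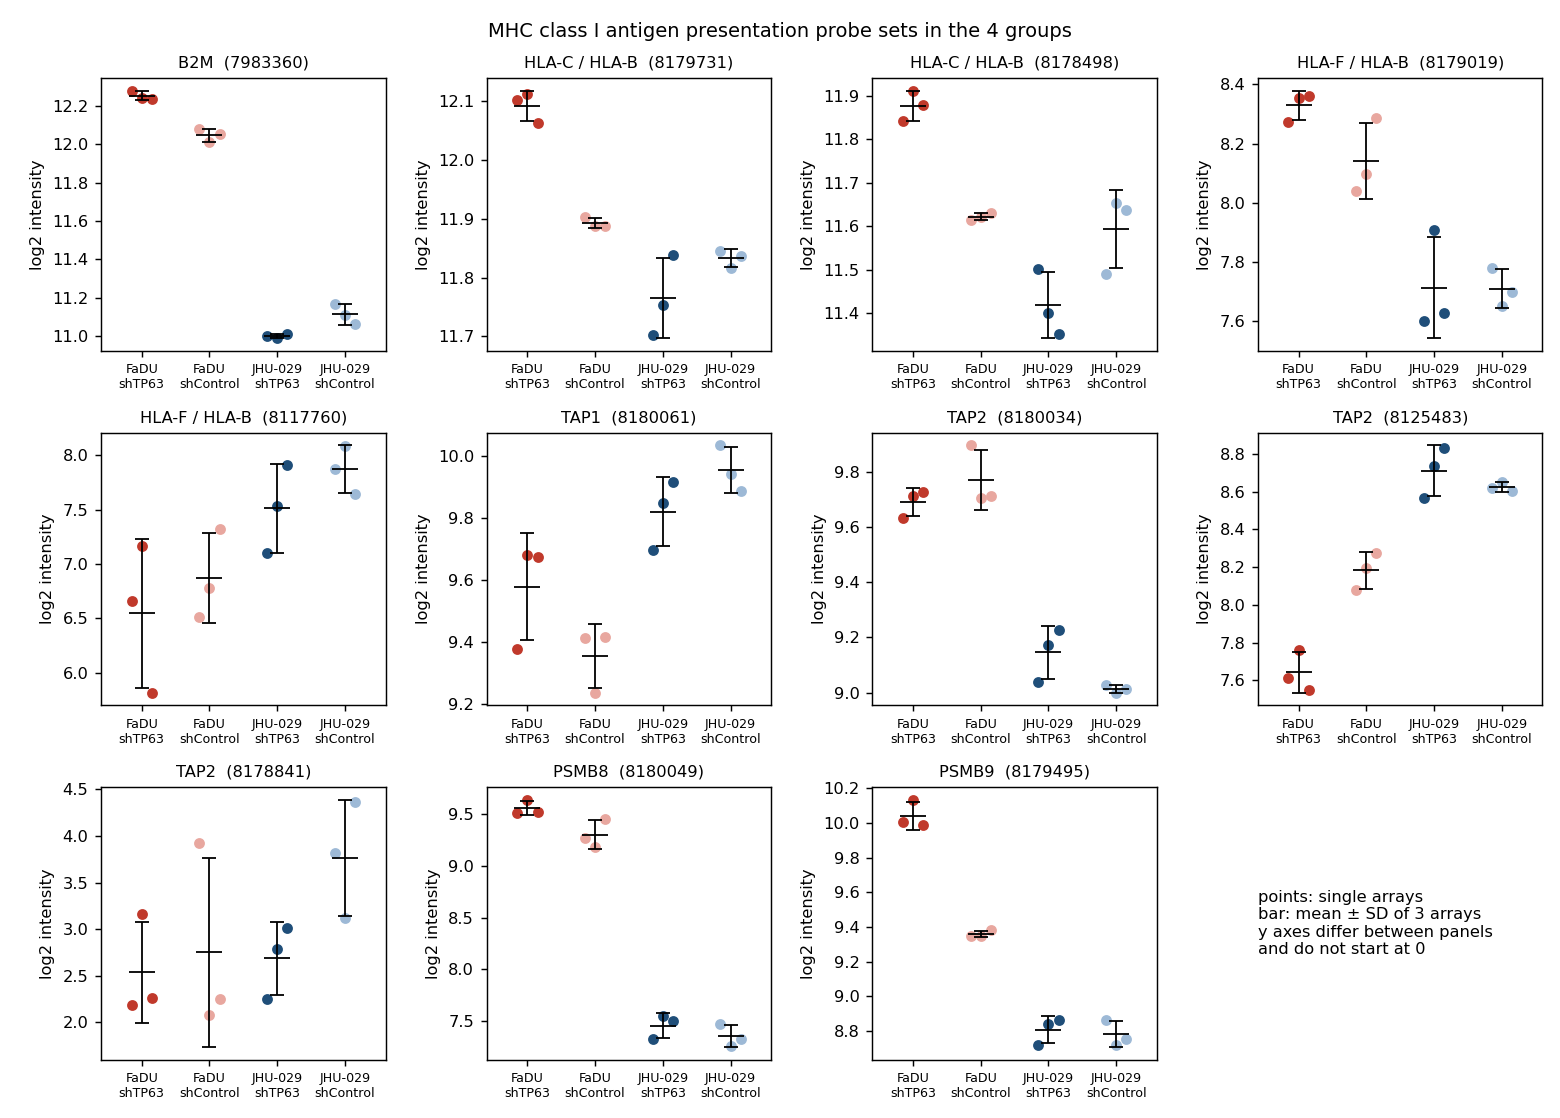
Log2 intensity of each of the 11 probe sets (panels, with probe set numbers) in the 4 groups. Points are single arrays and bars the mean ± SD of 3 arrays. The y axes differ between panels. PSMB9 and B2M in FaDU shTP63 lie above every other group, while the probe sets of TAP2 differ in their order of groups.

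The heavy chains are the polymorphic part of the class I molecule, and B2M is the invariant light chain that each of them needs to reach the surface. B2M (probe set 7983360) measured 4968, 4846 and 4822 in FaDU shTP63, against 4320, 4129 and 4250 in FaDU shControl. It measured 2051, 2031 and 2060 in JHU-029 shTP63, against 2304, 2210 and 2137 in JHU-029 shControl. The arms did not overlap in either line, with the knockdown arrays above the controls in FaDU and below them in JHU-029. In FaDU the log2 change was 0.20 (SE 0.05, adjusted p = 0.00734), a 1.15-fold rise. In JHU-029 it was -0.11 (SE 0.05, adjusted p = 0.290) and did not pass. The FaDU effect exceeded the JHU-029 effect by 0.32 on the log2 scale (SE 0.07, adjusted p = 0.00931), in a contrast where 4.97% of all genes were higher and 8.25% lower. Without the FaDU shControl arrays with the extra title word, the FaDU change of B2M was 0.20 with an adjusted p of 0.0711.

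Both probe sets listed for HLA-C and HLA-B rose in FaDU. Probe set 8178498 read 3668, 3848 and 3766 in FaDU shTP63, against 3134, 3151 and 3168 in FaDU shControl. In JHU-029 shTP63 it read 2900, 2700 and 2615, against 2877, 3219 and 3185 in JHU-029 shControl. The FaDU arms were separate, and the JHU-029 arms overlapped at the lowest control array. Probe set 8179731 read 4396, 4425 and 4281 in FaDU shTP63, against 3828, 3788 and 3790 in FaDU shControl. In JHU-029 shTP63 it read 3334, 3453 and 3664, against 3681, 3605 and 3659 in JHU-029 shControl, again with overlap. The FaDU rise on the log2 scale was 0.25 for 8178498 (SE 0.06, adjusted p = 0.0131). For 8179731 it was 0.20 (SE 0.05, adjusted p = 0.0164), both over all 32321 probe sets. Neither passed in JHU-029, where 8178498 changed by -0.18 (adjusted p = 0.263) and 8179731 by -0.07 (adjusted p = 0.769). The difference between the lines was 0.43 for 8178498 (adjusted p = 0.0123) and 0.27 for 8179731 (adjusted p = 0.0443), so 2 of the 4 shared probe sets were called higher where 2.26% of all probe sets were higher and 4.44% lower. The second of these differences kept its call only when JHU-029 shTP63 replicate 3 was the array left out, and in the other 11 leave-one-out fits its adjusted p lay between 0.0634 and 0.107. Its FaDU rise had an adjusted p of 0.0523 without FaDU shTP63 replicate 2. Without the controls with the extra title word, neither probe set was called in FaDU (adjusted p = 0.134 for 8178498 and 0.123 for 8179731). Since the probe sets carry both symbols, HLA-B and HLA-C cannot be separated on this array.

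HLA-F, a class I heavy chain outside the classical group, shared its probe sets with HLA-B, and neither passed the test in any knockdown comparison. Probe set 8179019 read 309, 327 and 329 in FaDU shTP63, against 263, 274 and 312 in FaDU shControl, with overlap at the highest control. It read 194, 241 and 198 in JHU-029 shTP63, against 220, 201 and 208 in JHU-029 shControl. The log2 changes were 0.19 in FaDU (adjusted p = 0.212) and 0.00 in JHU-029 (adjusted p = 0.998). Probe set 8117760 varied widely between replicates, with 101, 143 and 56.2 in FaDU shTP63, against 91.3, 110 and 161 in FaDU shControl. In JHU-029 shTP63 it read 137, 185 and 241, against 235, 273 and 201 in JHU-029 shControl. Its SE of 0.33 on the log2 scale stood beside changes of -0.33 in FaDU (adjusted p = 0.593) and -0.36 in JHU-029 (adjusted p = 0.851).

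**Figure D2:**
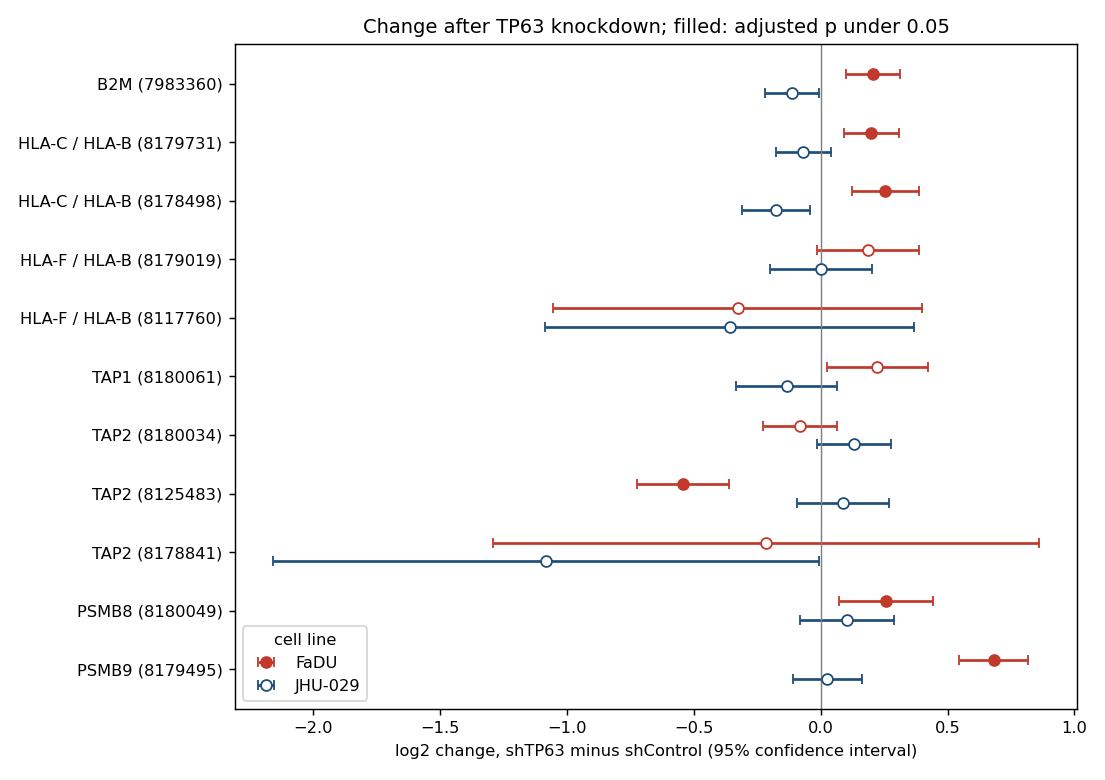
Log2 change, shTP63 minus shControl, for each probe set, in FaDU above and JHU-029 below. Bars are 95% confidence intervals from the limma fit, and filled points had an adjusted p under 0.05. The 6 filled points are all from FaDU, 5 to the right of 0 and 1 TAP2 probe set to the left.

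TAP1 and TAP2 form the heterodimer that pumps peptides into the endoplasmic reticulum. TAP1 (8180061) measured 666, 821 and 817 in FaDU shTP63, against 682, 603 and 684 in FaDU shControl. It measured 830, 923 and 966 in JHU-029 shTP63, against 1050, 983 and 948 in JHU-029 shControl. The arms overlapped in both lines, and in FaDU 1 knockdown array, replicate 1, lay among the controls. Its log2 change in FaDU was 0.22 (SE 0.09) with an adjusted p of 0.0949, and that in JHU-029 was -0.13 (SE 0.09) with an adjusted p of 0.597. The difference between these effects, 0.36, did not pass either (adjusted p = 0.0951). Without FaDU shTP63 replicate 1 the FaDU change was 0.32 (adjusted p = 0.0139) and the difference 0.46 (adjusted p = 0.0209). Quantile normalisation and cyclic loess of the 12 arrays also brought the FaDU change past the threshold (adjusted p = 0.0346 and 0.0409).

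The 3 probe sets of TAP2 disagreed. The brightest, 8180034, which stood for the gene, measured 795, 840 and 848 in FaDU shTP63, against 953, 835 and 839 in FaDU shControl. In JHU-029 shTP63 it measured 526, 577 and 599, against 522, 512 and 516 in JHU-029 shControl. The knockdown arrays overlapped the controls in FaDU and lay above all of them in JHU-029, with log2 changes of -0.08 in FaDU (adjusted p = 0.442) and 0.13 in JHU-029 (adjusted p = 0.398). Probe set 8125483 read 196, 217 and 188 in FaDU shTP63, against 270, 293 and 310 in FaDU shControl. In JHU-029 shTP63 it read 379, 427 and 456, against 393, 402 and 389 in JHU-029 shControl. It fell by 0.54 in FaDU (SE 0.08, adjusted p = 0.00096), with no overlap, and changed by 0.09 in JHU-029 (adjusted p = 0.856). The effects in the lines differed by -0.63 (SE 0.12, adjusted p = 0.00916). Probe set 8178841 read between 4.21 and 20.5 on all 12 arrays, far under the array medians, and was not called in either line. Whether 8125483 reports another transcript of TAP2 or another sequence was not tested.

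PSMB8 and PSMB9 are catalytic subunits that interferon-treated cells build into the immunoproteasome in place of PSMB5 and PSMB6, and PSMB10 is the third, which replaces PSMB7. PSMB9 (8179495) measured 1027, 1124 and 1015 in FaDU shTP63, against 651, 653 and 668 in FaDU shControl. It measured 421, 459 and 466 in JHU-029 shTP63, against 466, 422 and 432 in JHU-029 shControl. Each FaDU knockdown array exceeded every control by a wide margin, whereas the JHU-029 arms were intermingled. The rise in FaDU was 0.68 on the log2 scale (SE 0.06, adjusted p = 6.84e-06), and the change in JHU-029 was 0.03 (SE 0.06, adjusted p = 0.920). The difference between lines was 0.66 (SE 0.09, adjusted p = 0.000529). The call in FaDU and that of the difference held in every alternative run, with adjusted p-values of at most 0.00111 and 0.0118. PSMB8 (8180049) measured 733, 799 and 738 in FaDU shTP63, against 616, 583 and 702 in FaDU shControl. In JHU-029 shTP63 it measured 160, 187 and 181, against 177, 153 and 160 in JHU-029 shControl. The FaDU arms were just separate and gave a log2 change of 0.26 (SE 0.08, adjusted p = 0.0402), against 0.10 (adjusted p = 0.682) in JHU-029. The difference of 0.15 between the lines did not pass (adjusted p = 0.478). The call for PSMB8 was lost when any of the 3 FaDU knockdown arrays, either of the first 2 FaDU controls, or the third array of either JHU-029 arm was left out, with adjusted p-values of 0.0519 to 0.134. It was lost after median centring (adjusted p = 0.0770), and without the controls with the extra title word the change was 0.11 (adjusted p = 0.559).

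PSMB10, which was not among the 9 genes, read 757, 863 and 796 in FaDU shTP63, against 537, 471 and 575 in FaDU shControl. It rose by 0.61 (SE 0.07, adjusted p = 6.24e-05), close in size to PSMB9, and differed from JHU-029 by 0.55 (adjusted p = 0.00438). Its constitutive counterpart PSMB7 read 1479, 1519 and 1454 in FaDU shTP63, against 2107, 2154 and 2297 in FaDU shControl. PSMB7 fell by 0.56 (SE 0.05, adjusted p = 5.88e-06), and its difference between lines was -0.40 (adjusted p = 0.00307). The other constitutive subunits did not pass in FaDU, with log2 changes of -0.06 for PSMB5 (adjusted p = 0.535) and 0.00 for PSMB6 (adjusted p = 0.982). None of these subunits passed in JHU-029. The log2 changes there were 0.06 for PSMB10 (adjusted p = 0.828), -0.16 for PSMB7 (adjusted p = 0.125), 0.11 for PSMB5 (adjusted p = 0.424) and 0.15 for PSMB6 (adjusted p = 0.212). PSMB7 nevertheless read 2702, 2736 and 2778 in JHU-029 shTP63, below all of 3030, 3049 and 3100 in JHU-029 shControl. The JHU-029 arms of PSMB6 were also separate, with the knockdown arrays higher, and those of PSMB5 and PSMB10 overlapped.

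**Figure D3:**
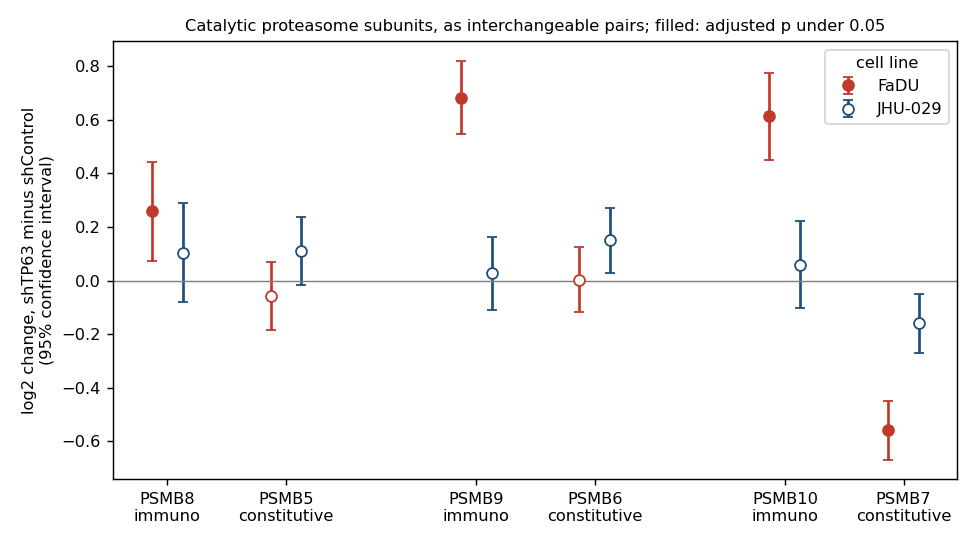
Log2 change, shTP63 minus shControl, of the immunoproteasome subunits PSMB8, PSMB9 and PSMB10, each beside the constitutive subunit it replaces, in FaDU (left point of each gene) and JHU-029 (right point). Bars are 95% confidence intervals and filled points had an adjusted p under 0.05. In FaDU the immunoproteasome subunits rose and PSMB7 fell, and no JHU-029 point is filled.

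The control arms differed between the lines for each of the 5 genes. In these arms, FaDU against JHU-029, 4 of the 5 genes were higher and TAP1 was lower, in a contrast where 33.4% of all genes were higher and 30.4% lower. PSMB8 was 3.87-fold higher in FaDU shControl (log2 1.95, adjusted p = 4.64e-10) and B2M 1.91-fold higher (log2 0.93, adjusted p = 2.57e-09). PSMB9 was 0.58 higher on the log2 scale (adjusted p = 2.91e-06), and TAP1 was 0.60 lower (log2 -0.60, adjusted p = 7.07e-05). TAP2 was 0.76 higher by probe set 8180034 (adjusted p = 4.08e-07) but lower by 8125483 (log2 -0.44, adjusted p = 0.000756), so no direction holds for TAP2. The mean of all its probe sets, with the dim 8178841 among them, gave -0.23. The dim TAP2 probe set 8178841 was not called (log2 -1.02, adjusted p = 0.0987) unless FaDU shControl replicate 1 was left out (log2 -1.60, adjusted p = 0.00556). Of the 4 shared HLA probe sets, 1 was higher and 1 lower, where 31.3% of all probe sets were higher and 24.3% lower. The HLA-C and HLA-B probe sets did not pass between the lines, with log2 differences of 0.03 for 8178498 (95% confidence interval -0.10 to 0.16, adjusted p = 0.715), which turned negative after median centring or quantile normalisation, and 0.06 for 8179731 (-0.05 to 0.17, adjusted p = 0.327). The HLA-F and HLA-B probe sets again went opposite ways, with 0.43 for 8179019 (adjusted p = 0.00189) and -1.001 for 8117760 (adjusted p = 0.0235). The call for 8117760 was lost without FaDU shControl replicate 1 or 2 or JHU-029 shControl replicate 1 or 2, with adjusted p-values of 0.0559 to 0.0844, and without both extra-word controls the difference was -0.55 (adjusted p = 0.381). For B2M, PSMB8 and PSMB9 the FaDU groups therefore lay above both JHU-029 groups, with the FaDU knockdown arm the highest, and the difference between the JHU-029 arms did not pass the test. For TAP1 the order of the lines was the opposite. These control differences share the control arrays with the knockdown comparisons.

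Of 17 peptide loading and trimming genes outside the 9, 14 were measured. In FaDU 4 rose and 1 fell, where 12.4% of all genes rose and 14.2% fell, and in JHU-029 0 were called, where 3.15% of all genes were. The list's median log2 change was 0.06 in FaDU, against 0.02 over all genes. TAPBP, or tapasin, which bridges TAP and the empty heavy chain, read 3665, 3735 and 3522 in FaDU shTP63, against 2813, 2794 and 2829 in FaDU shControl. It rose by 0.37 (SE 0.05, adjusted p = 9.13e-05), and its effect differed between lines by 0.46 (adjusted p = 0.000857). Both dimmer TAPBP probe sets had changes in the same direction that did not pass, 0.29 (adjusted p = 0.159) and 0.25 (adjusted p = 0.276). TAPBPL, a relative of tapasin that edits peptides, rose by 0.36 (adjusted p = 0.00308), and had an adjusted p of 0.0891 without the controls with the extra title word. ERAP1 and ERAP2, aminopeptidases that trim peptides in the endoplasmic reticulum, rose by 0.32 (adjusted p = 0.00726) and 0.23 (adjusted p = 0.00678). ERAP1 read 1113, 1175 and 1174 in FaDU shTP63, against 971, 916 and 890 in FaDU shControl, and 364, 432 and 406 in JHU-029 shTP63, against 532, 466 and 459 in JHU-029 shControl. Its arms were separate in both lines in opposite directions, the JHU-029 change being -0.28 (adjusted p = 0.0779), and the effects differed by 0.60 (adjusted p = 0.00324). THOP1, a cytosolic peptidase that destroys peptides, fell by 0.27 in FaDU (adjusted p = 0.0107).

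Among 20 proteasome subunits and activators outside the 9, 2 rose and 1 fell in FaDU, which were PSMB10, PSMB1 and PSMB7. Both counts lay under the shares over all genes, of which 12.4% rose and 14.2% fell. PSMB1, a constitutive subunit, rose by 0.19 (adjusted p = 0.0152), a call lost without FaDU shControl replicate 2 (adjusted p = 0.0536) and after median centring (adjusted p = 0.0516). Without the controls with the extra title word it changed by 0.13 (adjusted p = 0.212). The interferon-inducible activator subunits PSME1 and PSME2 did not pass, with 0.05 (adjusted p = 0.601) and 0.09 (adjusted p = 0.260). The list median was 0.01 in FaDU and 0.01 in JHU-029, where 0 of the 20 were called, beside 3.15% of all genes.

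Of 31 regulators of class I expression 29 were measured, and in FaDU 8 rose and 5 fell, beside 12.4% and 14.2% of all genes. Without the controls with the extra title word 5 rose and 3 fell. NLRC5, the transactivator of class I genes, did not pass in FaDU (log2 0.14, adjusted p = 0.118) or in JHU-029 (log2 -0.17, adjusted p = 0.214). Its difference between lines, 0.31, had an adjusted p of 0.0370, which stayed under the threshold only without FaDU shTP63 replicate 2 or 3, the first FaDU control or the second JHU-029 control, and rose to as much as 0.0893 in the other 8 of 12 leave-one-out fits. The interferon regulatory factor IRF1 read 597, 627 and 575 in FaDU shTP63, against 424, 409 and 425 in FaDU shControl, and rose by 0.52 (SE 0.07, adjusted p = 8.48e-05). In JHU-029 IRF1 changed by 0.07 (adjusted p = 0.736), and the lines differed by 0.45 (adjusted p = 0.00714). IRF9, the DNA-binding part of the type I interferon complex, rose by 0.66 in FaDU (adjusted p = 0.000105), and IFNAR1, a type I interferon receptor chain, by 0.44 (adjusted p = 0.000507). IFNGR1, the interferon gamma receptor chain, fell by 0.48 (adjusted p = 5.47e-05). RFXAP and NFYB, parts of the complexes that bind the class I and class II promoters, each fell by 0.31 (adjusted p = 0.00162 and 0.00633). In JHU-029 1 regulator rose and 1 fell, SUZ12 by 0.25 (adjusted p = 0.0272) and TYK2 by 0.25 (adjusted p = 0.0261), 2 of 29 where 3.15% of all genes were called. Both JHU-029 calls were lost when any 1 of the 6 JHU-029 arrays was left out, with adjusted p-values up to 0.116. SUZ12 and TYK2 were also called in FaDU in the same directions, with log2 changes of 0.22 (adjusted p = 0.00955) and -0.20 (adjusted p = 0.0139). These FaDU calls were lost without the controls with the extra title word, where the changes were 0.23 and -0.17. The FaDU call of TYK2 was also lost without FaDU shControl replicate 1 or FaDU shTP63 replicate 3.

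The remaining interferon-induced genes, 30 measured of 31 listed, held 18 that rose and 2 that fell in FaDU, with a median log2 change of 0.36. In this line 12.4% of all genes rose and 14.2% fell, with a median of 0.02 over all genes. GBP2, an interferon-induced GTPase, read 146, 138 and 154 in FaDU shTP63, against 34.5, 30.7 and 35.8 in FaDU shControl, and rose by 2.12 (adjusted p = 1.65e-08). IDO1, which degrades tryptophan, rose by 1.34 (adjusted p = 6.51e-07) and IFI27 by 0.94 (adjusted p = 3.92e-06). IDO1 read 53.2, 54.4 and 60.7 in FaDU shTP63, against 24.7, 19.6 and 22.3 in FaDU shControl, all under the array median. WARS1 fell by 0.47 (adjusted p = 7.85e-05) and IFI16 by 0.25 (adjusted p = 0.00482). In JHU-029 0 of the 30 passed, where 3.15% of all genes did, with a list median of 0.05. In the test of the difference between lines 9 of the 30 were higher, 1 was lower and 20 did not pass. Of all genes 4.97% were higher and 8.25% lower in that test. Without the FaDU controls with the extra title word 13 rose and 2 fell.

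**Figure D4:**
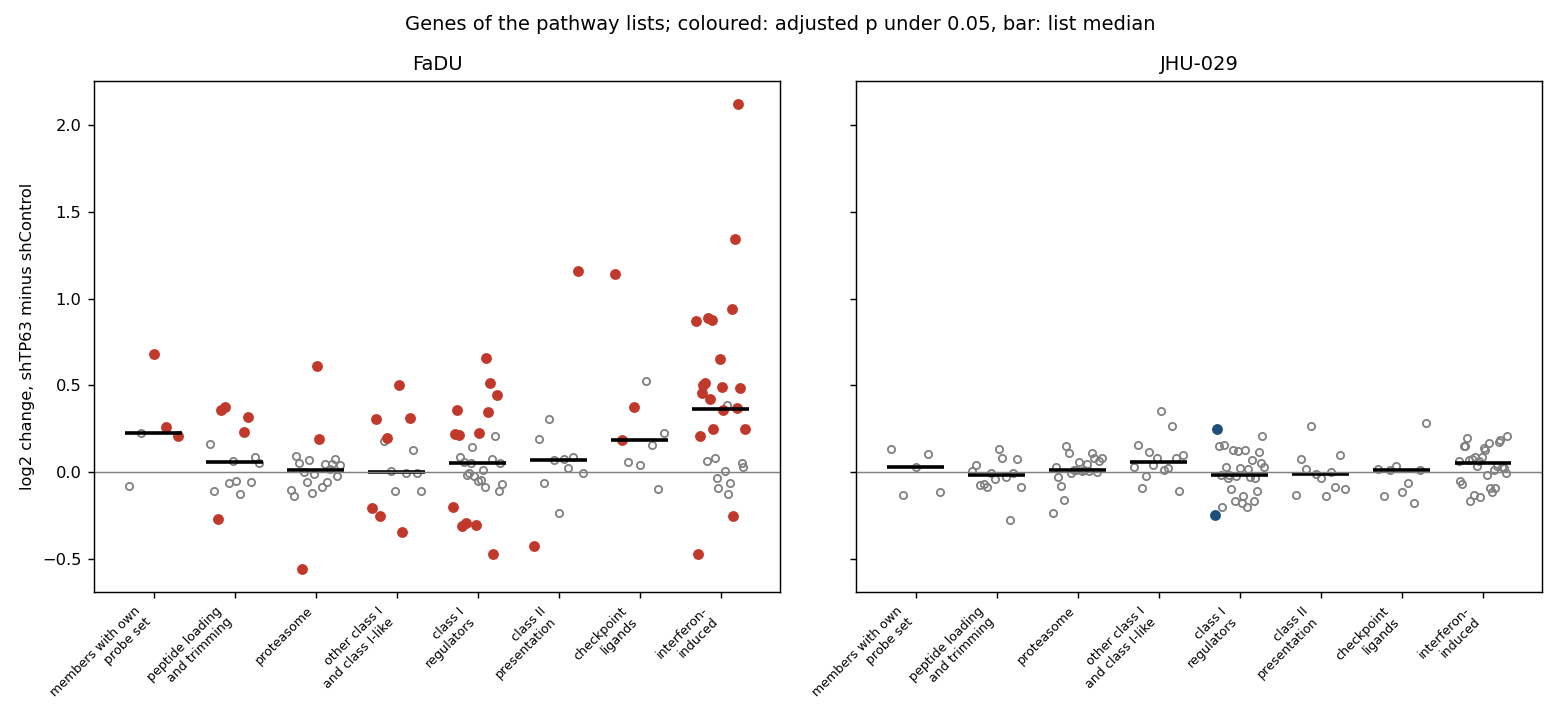
Log2 change, shTP63 minus shControl, of every measured gene in 8 of the gene lists (columns), in FaDU (left) and JHU-029 (right). Coloured points had an adjusted p under 0.05 and black bars are list medians. The interferon-induced list has the highest FaDU median, 0.36, and JHU-029 has 2 coloured points, the regulators SUZ12 and TYK2.

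Class I-like genes that are not among the 9 moved both ways in FaDU, 4 up and 3 down of 14 measured. Among all genes tested in FaDU, 12.4% rose and 14.2% fell. MR1, which presents vitamin metabolites, rose by 0.50 (adjusted p = 0.00123), HFE, the iron regulator, by 0.31 (adjusted p = 0.00975) and ULBP2, a ligand of the killer cell receptor NKG2D, by 0.31 (adjusted p = 0.00268). The further NKG2D ligands MICB, ULBP1 and ULBP3 fell by 0.35, 0.25 and 0.21 (adjusted p = 0.00118, 0.00382 and 0.0346), and the fall of ULBP3 had an adjusted p of up to 0.129 without the third FaDU control, the first FaDU knockdown array or the second JHU-029 control. In the class II list 1 of 11 measured genes rose and 1 fell, both counts under those shares. CTSS, a lysosomal protease that cuts the invariant chain, rose by 1.16 (adjusted p = 2.22e-06), and IFI30, a lysosomal thiol reductase, fell by 0.42 (adjusted p = 0.000684). Of 9 checkpoint ligands 3 rose, VTCN1 by 1.14 (adjusted p = 1.08e-05), PDCD1LG2 by 0.37 (adjusted p = 0.0144) and TNFRSF14 by 0.19 (adjusted p = 0.0208). VTCN1 was dim, with 91.7, 77.7 and 75.0 in FaDU shTP63, against 35.7, 38.9 and 35.8 in FaDU shControl. PDCD1LG2 and TNFRSF14 were not called without FaDU shControl replicate 2 or FaDU shTP63 replicate 3 (adjusted p of 0.0532 to 0.0691). Nor was TNFRSF14 called without FaDU shControl replicate 1 (adjusted p = 0.0699). Without the controls with the extra title word PDCD1LG2 changed by 0.21 (adjusted p = 0.277) and TNFRSF14 by 0.12 (adjusted p = 0.304).

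Beside these changes, 6 of 9 squamous markers fell in FaDU and none rose, KRT5 by 1.41 (adjusted p = 1.37e-08), SFN by 1.07 (adjusted p = 1.48e-07) and DSG3 by 0.82 (adjusted p = 2.02e-05). In FaDU 14.2% of all genes fell and 12.4% rose. Of 13 immune cell markers 2 rose and 0 fell in FaDU, LYZ by 0.76 (adjusted p = 0.00185) and CD14 by 0.51 (adjusted p = 0.00102). The median log2 change of the 13 was -0.01. LYZ read 39.8, 27.5 and 23.7 in FaDU shTP63, against 17.1, 19.5 and 16.1 in FaDU shControl, all under the array median. In JHU-029 1 of the 9 squamous markers rose and 0 fell, where 3.15% of all genes were called. The list's median log2 change there was -0.08. KRT5, SFN, DSG3 and DSP were lower in every JHU-029 shTP63 array than in any JHU-029 shControl array, without being called. For KRT14 and PKP1 the JHU-029 arms overlapped. The marker that rose was EPCAM, by 0.25 (adjusted p = 0.0177). Its call was lost without JHU-029 shControl replicate 1, 2 or 3 or JHU-029 shTP63 replicate 2 or 3 (adjusted p up to 0.0844).

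Over the 12 arrays, after each line's mean was subtracted, the members with their own probe set varied together except TAP2. Pearson's r was 0.81 between B2M and PSMB9, 0.80 between PSMB8 and PSMB9, 0.69 between B2M and TAP1 and 0.65 between TAP1 and PSMB9, against -0.49 between B2M and TAP2 and -0.24 between TAP2 and PSMB9. These values describe arrays that share lines and arms, and much of their spread is the FaDU knockdown difference itself. The genes most like the mean of the 5 members were SP110 (r = 0.97), TANK (r = 0.97), LZTFL1 (r = 0.97), RCOR3 (r = 0.97), NR2C2 (r = 0.97), RNF168 (r = 0.97), MEGF9 (r = 0.96), SNX13 (r = 0.96), ACOT13 (r = 0.96) and MMADHC (r = 0.96). The members' own correlations with that mean, which contains them, were 0.93 for PSMB9, 0.89 for PSMB8, 0.83 for TAP1, 0.77 for B2M and -0.02 for TAP2.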

How the data were processed

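Affymetrix arrays of 12 samples (3 for each line and shRNA) were used as the authors deposited them, in units of intensity on a linear scale. They were made with RMA and R 2.15.1 per the submitters' processing notes. The build, probe set definition and whether all arrays were normalised together are not given in the sources used here. RMA equalises arrays by quantiles, which would hide a change shared by all genes. The design assumed log2 values, so log2 was taken first. Among 32321 probe sets, 19158 carried a single gene symbol, 1388 carried more and 11775 had no entry. The highest-mean single-symbol probe set stood for a gene (18404 genes, 637 with several probe sets). Array medians lay between 6.46 and 6.56 on the log2 scale. The number of arrays limits the precision.

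limma 3.58.1 in R 4.3.3 fitted the 4 groups over all genes (8 residual degrees of freedom, prior 4.17) and, for shared HLA and further TAP2 probe sets, over all probe sets (prior 2.65), with Benjamini-Hochberg adjustment over all items of a contrast and a threshold of 0.05. The methods were tested on simulated data. The members and the 9 other gene lists were chosen with earlier results of these data known. The text names all members, up to 3 of the largest called rises and falls of each list per line, and fixed regulators and subunits. The likeness profile was to use 9 members but used the 5 with a probe set of their own. Deviations of same-numbered arrays correlated at -0.34 to 0.01, and those of differently numbered arrays at -0.13 to 0.29. No likeness of same-numbered arrays was thus seen. With 3 arrays per group this cannot show that they were unpaired, and the labels do not say. Alternatives were other normalisations, filters, probe set rules, variance priors, a replicate block, and fits without single arrays.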

Additional observations from a re-analysis of the deposited data

Results flagged for a closer look

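The effect of TP63 knockdown differed between FaDU and JHU-029, by limma's test of the difference (FaDU effect minus JHU-029 effect, log2), for these members. PSMB9 differed by 0.66 (adjusted p = 0.000529) and B2M by 0.32 (adjusted p = 0.00931). The probe sets shared by HLA-C and HLA-B differed by 0.43 for 8178498 and 0.27 for 8179731, and TAP2 probe set 8125483 by -0.63.

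The same test passed for other named genes of the lists. Of the proteasome, PSMB10 differed by 0.55 and PSMB7 by -0.40. Of peptide loading and trimming, TAPBP differed by 0.46, TAPBPL by 0.43, ERAP1 by 0.60 and ERAP2 by 0.26. The call for ERAP2 held only without FaDU shTP63 replicate 1 or FaDU shControl replicate 1, with adjusted p-values of up to 0.115 in the other leave-one-out fits, and that for TAPBPL had an adjusted p of 0.0547 without JHU-029 shControl replicate 3. Of the regulators, IRF9 differed by 0.64, IRF1 by 0.45, NLRC5 by 0.31, NFYB by -0.42, IFNGR1 by -0.44 and RFXAP by -0.46. Of interferon-induced genes, GBP2 differed by 1.94, IDO1 by 1.31, IFI27 by 0.93 and WARS1 by -0.42. The class I-like gene MICB differed by -0.36, CTSS of the class II list by 1.06, and the checkpoint ligands VTCN1 by 1.13 and TNFRSF14 by 0.32. Of cell type markers, LYZ differed by 0.81, CD14 by 0.50, DSG3 by -0.60, SFN by -0.89 and KRT5 by -1.30. The difference of MICB was lost without JHU-029 shTP63 replicate 2 (adjusted p = 0.0519) or JHU-029 shControl replicate 3 (adjusted p = 0.0552). That of LYZ was lost without FaDU shControl replicate 3, JHU-029 shTP63 replicate 1 or JHU-029 shControl replicate 3 (adjusted p up to 0.0546), and that of CD14 without FaDU shControl replicate 1, JHU-029 shTP63 replicate 1 or 2, or JHU-029 shControl replicate 1 or 3 (adjusted p up to 0.0629). Without the controls with the extra title word the differences of TNFRSF14 (0.25, adjusted p = 0.0995), TAPBPL (adjusted p = 0.106), DSG3 (adjusted p = 0.0577), LYZ (adjusted p = 0.0528), CD14 (adjusted p = 0.128), ERAP2 (adjusted p = 0.0752), NLRC5 (adjusted p = 0.0973) and both HLA-C and HLA-B probe sets (adjusted p = 0.0739 and 0.137) were not called. The second probe set of HLA-C and HLA-B kept its call only without JHU-029 shTP63 replicate 3.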

How the results depend on the processing

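Counts of called members and lists moved as follows. In FaDU 3 of 5 genes were called, and 1 when each line was fitted alone or without the 2 controls with the extra title word. The genes called in FaDU also changed in further runs where PSMB8 lost its call or TAP1 gained one, as given for those genes. In JHU-029 0 were called, and 1 (B2M, log2 -0.11, adjusted p = 0.0475) with an intensity trend in the prior. For the difference between lines 2 genes were called, and 1 with the replicate block as a fixed term. Of the shared HLA probe sets 2 were called in FaDU, 1 with each line fitted alone, 0 with the fixed replicate block, 0 without the extra-word controls and 1 to 2 in leave-one-out fits. For their difference 2 were called, 1 after median centring or with a random replicate block, 0 with the fixed block, 0 without the extra-word controls and 1 to 2 in leave-one-out fits. Between controls 2 were called, 1 without the extra-word controls and 1 to 2 in leave-one-out fits. Over the lists, whose recounts were added after seeing the data, 3 genes were called in JHU-029, 1 after median centring, 7 after quantile or cyclic loess normalisation, 14 with dim genes removed, 15 with the trend, 0 with the fixed replicate block and 0 to 4 in leave-one-out fits. Over all genes the JHU-029 count was 580, and it was 1014 with dim genes removed, 1015 with the trend and 172 with the fixed replicate block, while the block left 1395 of 2433 for the difference.

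The labels do not say whether the replicate numbers pair the arrays. Of the members' calls, the fixed replicate block ended those of PSMB8 in FaDU (adjusted p = 0.110) and B2M for the difference (0.0567). It also ended those of both HLA-C and HLA-B probe sets (0.0833 and 0.0859 in FaDU, 0.106 and 0.180 for the difference). The difference of TAP2 8125483 was lost with that block as well (0.0579). TAP1 in FaDU passed after quantile (adjusted p = 0.0346) or cyclic loess normalisation (0.0409), with dim genes removed (0.0451) and with the trend (0.0368).

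Reversals concerned changes that had not passed, apart from TAP2 between controls. With the mean of its probe sets TAP2 gave -0.29 in JHU-029, 0.0086 for the difference and -0.23 between controls. That mean includes the dim 8178841, which changed by -1.08 in JHU-029, against 0.13 for 8180034 and 0.09 for 8125483. Between controls these gave -1.02, 0.76 and -0.44. PSMB6 in FaDU gave -0.0084 after median centring, -0.0766 without the extra-word controls and -0.0325 to 0.0418 in leave-one-out fits, and PSME1 gave -0.0144 without those controls. PSMB9 in JHU-029 ranged from -0.00235 to 0.0716 in leave-one-out fits. HLA-C and HLA-B probe set 8178498 between controls gave -0.0265 after median centring, -0.011 after quantile normalisation and -0.0231 to 0.058 in leave-one-out fits. HLA-F and HLA-B probe set 8179019 in JHU-029 gave -0.000203 after cyclic loess and -0.0951 to 0.0598 in leave-one-out fits. Probe set 8117760 gave -0.64 to 0.0389 in FaDU, and for the difference -0.28 to 0.40 and, without the extra-word controls, -0.42. TAP2 8178841 in FaDU gave -0.55 to 0.37, and 0.28 without those controls. The cause was not tested. The fit without the extra-word controls assumes that the 1 control left varies like the other groups.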

Other observations

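Within JHU-029 some members had the same arrays at the ends of their group, a pattern seen after the values were examined. Replicate 1 of JHU-029 shTP63 was the lowest of its group for TAP1 (830), TAP2 (526), PSMB8 (160) and PSMB9 (421), and replicate 1 of JHU-029 shControl the highest of its group for TAP1 (1050), TAP2 (522), PSMB8 (177), PSMB9 (466) and B2M (2304). HLA-C and HLA-B probe set 8178498 had replicate 1 at the opposite ends, with 2900 in JHU-029 shTP63 and 2877 in JHU-029 shControl, and B2M in JHU-029 shTP63 was lowest in replicate 2 (2031). The interferon-induced gene MX1 had the same arrays at the ends, with 359, 514 and 540 in JHU-029 shTP63, against 566, 440 and 525 in JHU-029 shControl. The arms of MX1, which was chosen after its values were seen, overlapped. SP110 followed the members' mean with r = 0.93 over the 6 JHU-029 arrays although it did not pass the test there (log2 0.08, adjusted p = 0.842). This gene had been picked for its correlation over the 12 arrays, which include these 6. The other genes picked that way had r from 0.82 (MMADHC) to 0.97 (MEGF9) over the JHU-029 arrays. Not all members followed their own mean there, with r of 0.97 for PSMB9, 0.83 for PSMB8, 0.71 for TAP1, 0.57 for TAP2 and 0.23 for B2M.

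The interferon-induced list and the members were not ordered alike between lines. Of the list's 30 measured genes, 22 were lower and 4 higher in FaDU shControl than in JHU-029 shControl, with a median log2 difference of -0.64. Among all genes 30.4% were lower and 33.4% higher. Of the members, B2M, PSMB8 and PSMB9 were higher, TAP1 was lower and the TAP2 probe sets disagreed. OAS2, named after its values were seen, read 172, 178 and 164 in FaDU shTP63, against 99.5, 80.9 and 98.6 in FaDU shControl, and 1144, 1427 and 1372 in JHU-029 shTP63, against 1512, 1414 and 1482 in JHU-029 shControl. Knockdown in FaDU thus left OAS2 well under its level in either JHU-029 arm.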
